A study of Homo sapiens with 20 samples.

Results

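Tubulin isotypes are the products of separate genes for alpha- and beta-tubulin, the proteins that pair and polymerise into microtubules. The 10 genes described here are 7 beta-tubulin genes (TUBB, TUBB2A, TUBB2B, TUBB3, TUBB4A, TUBB4B and TUBB6) and 3 alpha-tubulin genes (TUBA1A, TUBA1B and TUBA1C). They were taken by symbol from a table of 78932 genes, because tubulin is the best known substrate of the deacetylase HDAC6. Earlier results of these data were known when the genes were chosen. Each symbol matched 1 identifier, and all 10 genes passed the filter on low counts that left 20957 genes for testing. TUBB3 (2 and 6 counts in DMSO) and TUBB4A (11 and 8) passed it only through inhibitor groups, where they were higher. Transcripts were measured by poly(A) RNA sequencing in OPM2, an established human multiple myeloma line that grows in suspension, in 20 libraries forming 10 groups of 2 independent biological replicates.

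The vehicle group was given DMSO, and its labels state no harvest time. Panobinostat (10 nM), a hydroxamic acid that inhibits many histone deacetylases (HDACs), romidepsin (10 nM), a cyclic depsipeptide directed mainly at class I HDACs, and ricolinostat (100 nM), a hydroxamic acid directed mainly at HDAC6, were each applied for 2, 5 and 20 h. The treatment field of the ricolinostat samples states 10 nM, against 100 nM in their titles and the protocol. All groups are 1 cell line, so nothing here shows how another line would respond. Time in culture and inhibitor cannot be told apart in a comparison with DMSO, and all such comparisons share the same 2 control libraries. In a bulk sample, fewer cells of a kind and less RNA per cell cannot be told apart either.

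Total counts ran from 17264640 to 29088868 per library. All 10 plasma cell and myeloma markers examined were above 1 CPM (the read count scaled to a common library size, after TMM normalisation) in DMSO, with summed levels of 11100 and 11200 CPM. Their sum was 1560 CPM with panobinostat at 20 h, 2920 to 2950 CPM with romidepsin and 9430 to 9480 CPM with ricolinostat. At 20 h 10, 9 and 8 of them were lower than DMSO in that order, and 0, 1 and 1 higher. Of all genes tested, 32.3%, 29.9% and 16.4% were lower in the same groups, and 40.8%, 38.6% and 14.7% higher. Summed markers of T and NK cells reached at most 0.783 CPM in DMSO and the 20 h groups.

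A dividing cell expresses several isotypes at once, and their mix differs between tissues: TUBB, TUBB4B, TUBA1B and TUBA1C are broadly expressed, whereas TUBB3 and, in large part, TUBB2A, TUBB2B, TUBB4A and TUBA1A are associated with neural cells. Newly made tubulin is folded by the CCT chaperonin and dedicated cofactors. Excess free tubulin leads to decay of tubulin mRNA during translation, through TTC5, which reads the start of the nascent tubulin chain. Alpha-tubulin is acetylated on a lysine at position 40 by ATAT1, and HDAC6 and SIRT2 remove that mark.

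The first 30 coding bases of the GENCODE 29 principal transcripts are shown because the start of the chain is what the decay pathway reads. Capitals mark the first 12 bases.
TUBB: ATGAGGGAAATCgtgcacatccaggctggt
TUBB4B: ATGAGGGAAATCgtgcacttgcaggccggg
TUBB3: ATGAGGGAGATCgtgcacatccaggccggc
TUBB2A: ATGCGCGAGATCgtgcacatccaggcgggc
TUBB4A: ATGCGGGAGATCgtgcacctgcaggccggc
TUBA1A: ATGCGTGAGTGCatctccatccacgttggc
TUBB and TUBB4B have the same 12 capitals, and the 30 bases of TUBA1B and TUBA1C are those shown for TUBA1A. The bases around the acetylated lysine are also the same in the 3 alpha genes, with the lysine codon in capitals.
TUBA1A: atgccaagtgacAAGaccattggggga
Coding sequences were 95.9 to 97.2% identical between the alpha genes, 98.2% between TUBB2A and TUBB2B, and 84.4% between TUBB and TUBB4B.

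Such likeness bears on the counts, since the rule the authors used for reads that match several genes is not given in the sources used here. Stretches of 100 bases that also occur in a transcript of another gene made up 56.4% of the TUBB2A and 46.2% of the TUBB2B transcript, mostly shared with each other, so values for this pair are uncertain one by one. The share was 37.2% for TUBA1B, 18.3% for TUBA1A, 11.5% for TUBA1C, 5.1% for TUBB and 2.86% for TUBB4B, and 0 for TUBB4A and TUBB6. For TUBB3 it was 89%, nearly all with the readthrough gene AC092143.1 on the same strand, which had 0 counts in every library. Those 0 counts do not show whether reads in the shared part went to TUBB3 or to neither gene. All TUBB3 levels given here may therefore be too low. TUBA1A and TUBA1C overlap on opposite strands, as do TUBB6 and AFG3L2 (up to 5099 counts), and TUBB2B and PSMG4 (up to 644 counts). The strand setting of the counting is not given either, so reads of such pairs cannot be assigned with certainty.

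Promoter sequence is shown for TUBB and TUBB4B, the 2 most abundant beta genes, which moved in opposite directions at 20 h with panobinostat and romidepsin, and for TUBB3, which rose most. Each line gives bases before both the RefSeq start and the start of the principal transcript (plus strand, build GRCh38.p14), with CCAAT and GGGCGG, read on both strands, in capitals.
TUBB (chr6:30720102-30720200): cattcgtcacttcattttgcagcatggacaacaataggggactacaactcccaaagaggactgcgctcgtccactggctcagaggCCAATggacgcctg
TUBB4B (chr9:137241037-137241212): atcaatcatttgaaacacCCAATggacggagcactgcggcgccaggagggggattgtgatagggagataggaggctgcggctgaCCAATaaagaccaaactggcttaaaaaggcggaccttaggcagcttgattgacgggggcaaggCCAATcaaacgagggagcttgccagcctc
TUBB3 (chr16:89923092-89923278): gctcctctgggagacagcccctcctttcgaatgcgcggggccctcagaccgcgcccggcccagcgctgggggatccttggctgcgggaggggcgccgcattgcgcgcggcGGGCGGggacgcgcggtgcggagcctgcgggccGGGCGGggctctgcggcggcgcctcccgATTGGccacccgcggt
The window of 300 bases nearest the principal transcript start held 3 CCAAT and 0 GGGCGG in TUBB4B, 1 and 1 in TUBB, and 1 and 5 in TUBB3. RefSeq gives TUBB and TUBB3 1 further window each, with other contents: 0 CCAAT, 6 GGGCGG and 43 CG pairs in TUBB, and 0, 0 and 9 in TUBB3. Of 35116 windows of this length in the RefSeq table, 34.6% held CCAAT and 45% GGGCGG. Neither TATAAA nor TTCNNGAA occurred in any of these windows, against 11.5% and 7.74% of all windows. In the nearest windows CG pairs numbered 18 in TUBB4B, 25 in TUBB and 47 in TUBB3, where the median window had 14. These matches describe the letters only.

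With panobinostat the beta pool changed from mostly TUBB to mostly TUBB4B, and transcripts of the low neural-type isotypes and of TUBA1A rose. Romidepsin gave few calls at 2 h and large changes at 20 h, and ricolinostat gave mostly small changes, of which that of TUBA1A grew with time. Each change is a log2 fold change ± SE by edgeR's quasi-likelihood test with 2 libraries per group, and a gene is called higher, lower, risen, fallen or changed where its Benjamini-Hochberg adjusted p over all genes tested was under 0.05.

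Against DMSO, panobinostat had 5 of the 10 genes higher and 4 lower at 2 h, where 20.8% of all genes tested were higher and 18.1% lower. At 5 h 6 were higher and 3 lower (all genes 30.7% and 25.9%), and at 20 h again 6 and 3 (40.8% and 32.3%). The median change of the 10 was 0.23, 0.77 and 2.21, beside 0.00, 0.12 and 0.25 over all genes tested. With romidepsin 1 was higher and 1 lower at 2 h (3.55% and 4.62%), 4 and 5 at 5 h (13% and 16.5%), and 6 and 4 at 20 h (38.6% and 29.9%), with medians of 0.04, -0.04 and 1.82 beside 0, 0.02 and 0.22. With ricolinostat 3 were higher and 2 lower at 2 h (16.9% and 14.5%), 4 and 4 at 5 h (18.8% and 15.3%), and 2 and 3 at 20 h (14.7% and 16.4%), with medians of 0.11, 0.15 and -0.06 beside 0, 0.02 and 0.03. Every one of the 10 genes changed with romidepsin at 20 h, and TUBB6 was the only 1 that did not pass with panobinostat at 20 h. These counts and medians include TUBB3 and TUBB4A, which passed the filter on low counts only through inhibitor groups.

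**Figure D1:**
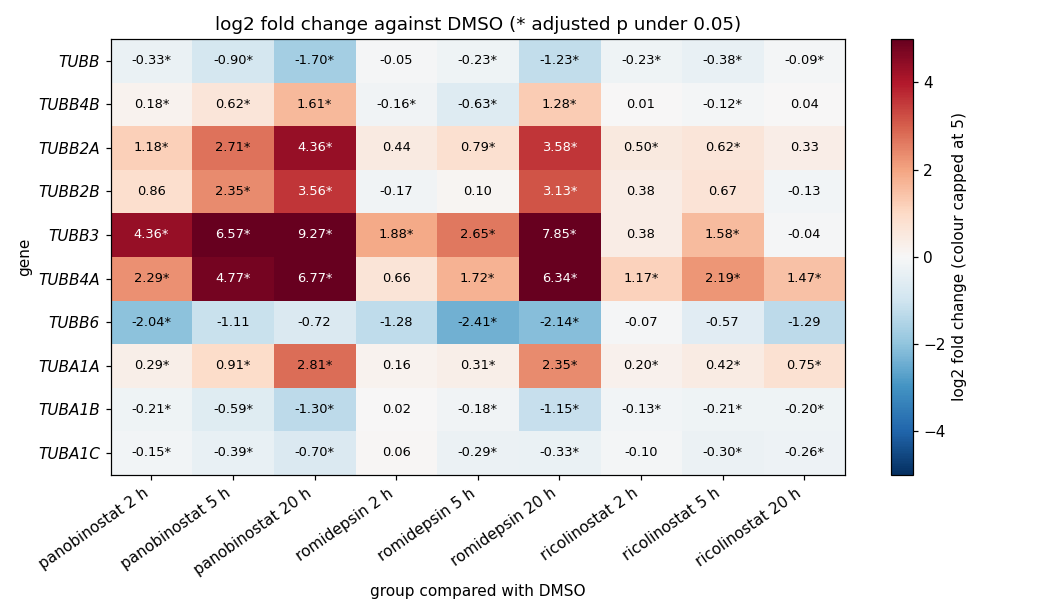
Log2 fold change against DMSO of each tubulin gene (rows) in the 9 inhibitor groups (columns), with red for higher, blue for lower and an asterisk where the adjusted p was under 0.05. TUBB, TUBA1B and TUBA1C are blue and the neural-type isotypes red at 20 h with panobinostat and romidepsin, and TUBB4B is blue with romidepsin at 5 h and red at 20 h.

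TUBB, a beta-tubulin of most dividing cells (ENSG00000196230, GRCh38 chromosome 6, 30720201 to 30725426, plus strand), stood at 1685 and 1674 CPM in the DMSO libraries. It read 1356 and 1308 CPM with panobinostat at 2 h, 909 and 894 CPM at 5 h and 507 and 529 CPM at 20 h. The 3 panobinostat groups did not overlap with DMSO or with each other, and each later time was lower. The changes were -0.33 ± 0.04, -0.90 ± 0.04 and -1.70 ± 0.04 (adjusted p = 2.5e-14, 1.7e-42 and 2.6e-66). Romidepsin libraries read 1609 and 1638 CPM at 2 h, 1461 and 1399 CPM at 5 h and 731 and 705 CPM at 20 h, so that the fall came later. The change at 2 h did not pass (-0.05 ± 0.04, adjusted p = 0.5), and those at 5 and 20 h were -0.23 ± 0.04 and -1.23 ± 0.04.

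With ricolinostat TUBB read 1437 and 1430 CPM at 2 h, 1336 and 1249 CPM at 5 h and 1612 and 1547 CPM at 20 h. All 6 libraries were below both DMSO libraries, and the level at 20 h was above that at 5 h by 0.29 ± 0.04 (adjusted p = 1.5e-11). Against DMSO the changes were -0.23 ± 0.04, -0.38 ± 0.04 and -0.09 ± 0.04, the last with adjusted p = 0.045. That last TUBB call did not hold without DMSO replicate 1 (adjusted p = 0.17), without DMSO replicate 2 (0.12) or without ricolinostat 20 h replicate 2 (0.31), and with library size as the only scaling TUBB was at 0.01 (adjusted p = 0.79). In order of level, DMSO was highest, romidepsin at 2 h and ricolinostat at 20 h overlapped next, and romidepsin and panobinostat at 20 h were the lowest.

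TUBB4B, a widely expressed beta-tubulin that is abundant in ciliated cells (ENSG00000188229, chromosome 9, 137241213 to 137243707, plus strand), moved the other way with panobinostat. DMSO libraries held 600.4 and 610 CPM, against 704 and 666 CPM with panobinostat at 2 h, 929 and 931 CPM at 5 h and 1797 and 1886 CPM at 20 h. Each panobinostat group was above the one before it, without overlap. The rises were 0.18 ± 0.04, 0.62 ± 0.04 and 1.61 ± 0.04 (adjusted p = 2.2e-05, 2.0e-29 and 1.4e-63).

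Romidepsin first lowered TUBB4B and then raised it. Its libraries read 534 and 548 CPM at 2 h, 400.3 and 381 CPM at 5 h and 1487 and 1456 CPM at 20 h. Both early groups lay below DMSO and the 20 h group above it, with no overlap. The changes were -0.16 ± 0.04 (adjusted p = 0.001), -0.63 ± 0.04 (adjusted p = 3.4e-28) and 1.28 ± 0.04 (adjusted p = 6.8e-55), and the step from 5 to 20 h was 1.91 ± 0.04. With ricolinostat TUBB4B read 609 and 607 CPM at 2 h, 552.5 and 565 CPM at 5 h and 637 and 606 CPM at 20 h. Only the 5 h group lay outside the DMSO range on both libraries, at -0.12 ± 0.04 (adjusted p = 0.0081). At 20 h TUBB4B was at 0.04 ± 0.04 (adjusted p = 0.49), but was called higher with library size as the only scaling (0.14, adjusted p = 0.00023) and with a filter at a mean of 1 CPM (0.08, adjusted p = 0.045).

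**Figure D2:**
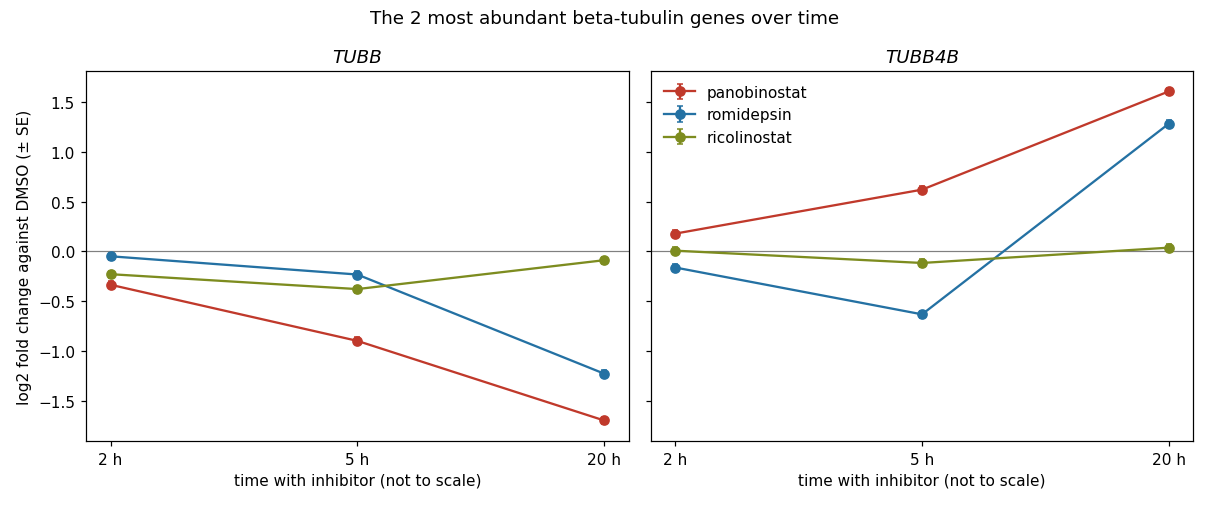
Log2 fold change against DMSO (± SE, y axis) of TUBB (left) and TUBB4B (right) after 2, 5 and 20 h (x axis, not to scale) with panobinostat, romidepsin or ricolinostat. TUBB ends at -1.70 and -1.23 with panobinostat and romidepsin, where TUBB4B ends at 1.61 and 1.28, after a dip to -0.63 with romidepsin at 5 h.

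TUBB3, the beta-tubulin used as a marker of neurons (ENSG00000258947, chromosome 16, 89921392 to 89938761, plus strand), was close to the counting limit in DMSO, with 2 and 6 counts (0.0847 and 0.224 CPM). Panobinostat libraries held 3.35 and 3.37 CPM at 2 h, 15.6 and 15.6 CPM at 5 h and 99.9 and 101.5 CPM at 20 h. These levels rested on 71 and 88, 274 and 378, and 2553 and 3376 counts, and no group overlapped with another. The rises were 4.36 ± 0.34, 6.57 ± 0.25 and 9.27 ± 0.20 (adjusted p = 7.1e-21, 5.9e-44 and 6.3e-67), with a size that leans on the 8 counts of the DMSO libraries. Romidepsin at 20 h gave 38.6 and 37.0 CPM, a rise of 7.85 ± 0.22 (adjusted p = 2.0e-56).

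At the early romidepsin times TUBB3 was at 0.526 and 0.666 CPM (2 h) and 0.868 and 1.21 CPM (5 h), all above both DMSO libraries. These were rises of 1.88 ± 0.52 (adjusted p = 0.01) and 2.65 ± 0.46 (adjusted p = 1.1e-06). The TUBB3 call at 2 h rested on 12 and 16 counts and was lost without DMSO replicate 1 (1.38, adjusted p = 0.22) or without romidepsin 2 h replicate 2 (1.68, adjusted p = 0.13). With ricolinostat TUBB3 stayed at 0.119 to 0.515 CPM in the 6 libraries and passed at 5 h alone (1.58 ± 0.55, adjusted p = 0.016). That call was lost for TUBB3 without DMSO replicate 1 (adjusted p = 0.23) or without either ricolinostat 5 h library (0.069 and 0.089).

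TUBB4A, a beta-tubulin abundant in brain (ENSG00000104833, chromosome 19, 6494319 to 6502848, minus strand), shared no stretch of 100 bases with another gene. It was at 0.466 and 0.298 CPM in DMSO and at 2.26 and 1.53, 10.5 and 10.4, and 42.4 and 41.3 CPM with panobinostat at 2, 5 and 20 h. The panobinostat groups rose in steps without overlap, by 2.29 ± 0.36, 4.77 ± 0.27 and 6.77 ± 0.23 against DMSO. The size of every TUBB4A change against DMSO leans on the 11 and 8 counts of the DMSO libraries. Romidepsin gave 0.438 and 0.749, 1.46 and 1.02, and 29.5 and 32.4 CPM, with changes of 0.66 ± 0.46 (adjusted p = 0.49), 1.72 ± 0.39 (adjusted p = 0.00022) and 6.34 ± 0.23.

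TUBB4A was also the beta gene with the largest changes under ricolinostat, at 0.874 and 0.833 CPM at 2 h, 1.23 and 2.34 CPM at 5 h and 1.37 and 0.726 CPM at 20 h. All 6 libraries were above both DMSO libraries. The rises were 1.17 ± 0.43 (adjusted p = 0.026), 2.19 ± 0.37 (adjusted p = 3.1e-07) and 1.47 ± 0.41 (adjusted p = 0.0026). At 2 h the TUBB4A call was lost without DMSO replicate 2 (0.84, adjusted p = 0.26) or without either ricolinostat 2 h library (0.12 and 0.095). At 20 h it was lost without DMSO replicate 2 (1.16, adjusted p = 0.075) or without ricolinostat 20 h replicate 1 (0.93, adjusted p = 0.24).

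TUBB2A, another beta-tubulin of neural tissue (ENSG00000137267, chromosome 6, 3153669 to 3157526, minus strand), went from 3.26 and 2.61 CPM in DMSO to 58.9 and 61.5 CPM with panobinostat at 20 h. Romidepsin at 20 h gave 33.7 and 36.2 CPM, and ricolinostat 4.07 and 3.26 CPM. Panobinostat raised TUBB2A at each time, by 1.18 ± 0.18, 2.71 ± 0.15 and 4.36 ± 0.14. Romidepsin raised it at 5 h (0.79 ± 0.19, adjusted p = 0.00033; 0.39, adjusted p = 0.25, without romidepsin 5 h replicate 2) and at 20 h (3.58 ± 0.15). Ricolinostat gave 0.50 ± 0.19 at 2 h (adjusted p = 0.034) and 0.62 ± 0.19 at 5 h (adjusted p = 0.006). The first of these TUBB2A calls was lost without DMSO replicate 2 (adjusted p = 0.37), without ricolinostat 2 h replicate 1 (0.056) or replicate 2 (0.47), and the other without DMSO replicate 2 (0.19) or ricolinostat 5 h replicate 1 (0.062).

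TUBB2B, the near copy of TUBB2A (ENSG00000137285, chromosome 6, 3224261 to 3231730, minus strand), was lower throughout, at 0.678 and 0.485 CPM in DMSO and 6.18 and 7.49 CPM with panobinostat at 20 h. It passed with panobinostat at 5 h (2.35 ± 0.37) and 20 h (3.56 ± 0.34) and with romidepsin at 20 h (3.13 ± 0.35), and in no ricolinostat group. When TUBB2A and TUBB2B counts were added, the sum rose by 1.13, 2.65 and 4.26 with panobinostat at 2, 5 and 20 h and by 3.52 with romidepsin at 20 h. The rise of the pair at 20 h thus does not depend on how reads were split between them.

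TUBB6, a minor beta-tubulin (ENSG00000176014, chromosome 18, 12307669 to 12344320, plus strand), was lower in 3 groups and higher in none, with 2 to 33 counts per library. DMSO libraries held 1.06 and 1.23 CPM, panobinostat at 2 h 0.283 and 0.268 CPM, romidepsin at 5 h 0.315 and 0.0927 CPM and at 20 h 0.253 and 0.26 CPM. These 3 groups lay below DMSO without overlap and were the 3 that passed, at -2.04 ± 0.61 (adjusted p = 0.0042), -2.41 ± 0.64 (adjusted p = 0.0016; -1.86, adjusted p = 0.066, without romidepsin 5 h replicate 2) and -2.14 ± 0.61 (adjusted p = 0.0013). No ricolinostat group passed for TUBB6, with 0.257 to 1.4 CPM in the 6 libraries.

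**Figure D3:**
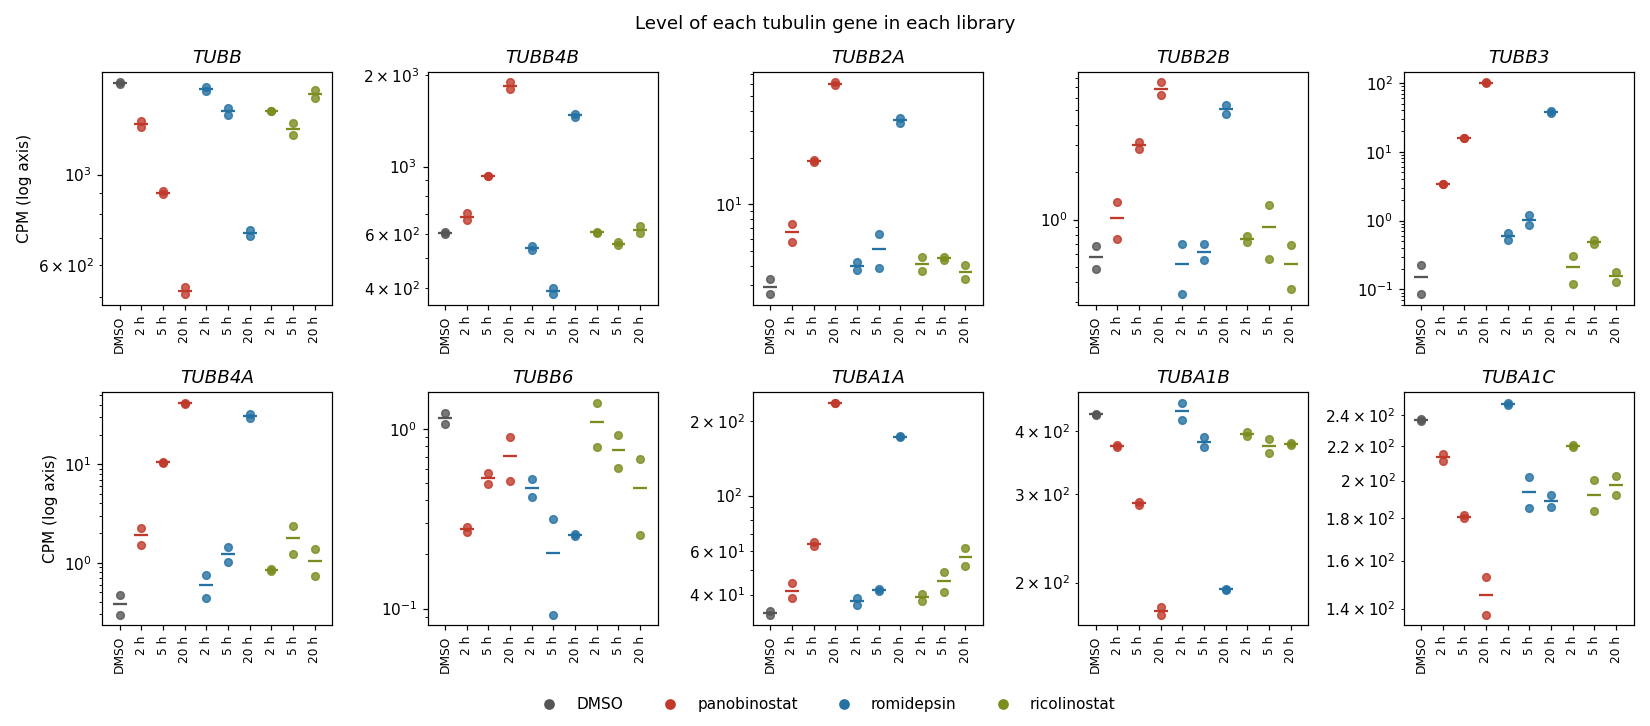
CPM of each tubulin gene in each library (points, log axis whose range differs between panels) with the group mean (line), for DMSO and for the 3 times of each inhibitor. The points of a pair mostly lie close together except in the low-count genes TUBB6, TUBB2B and TUBB4A. Those of TUBB3 also lie apart in DMSO and with ricolinostat at 2 h, where its counts are low. TUBB3 spans 0.0847 CPM in a DMSO library to 101.5 CPM with panobinostat at 20 h.

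Among the alpha genes, TUBA1A rose while TUBA1B and TUBA1C fell. TUBA1A, the alpha-tubulin best known from developing neurons (ENSG00000167552, chromosome 12, 49184796 to 49189324, minus strand), read 33.2 and 34.2 CPM in DMSO. With panobinostat it read 44.4 and 38.6 CPM at 2 h, 64.9 and 62.5 CPM at 5 h and 236.5 and 236.9 CPM at 20 h. Every panobinostat library was above DMSO, and the changes were 0.29 ± 0.07, 0.91 ± 0.07 and 2.81 ± 0.07 (adjusted p = 0.00058, 1.0e-19 and 2.8e-52; at 2 h 0.17, adjusted p = 0.1, for TUBA1A without panobinostat 2 h replicate 1). Romidepsin gave 36.5 and 38.9, 41.2 and 42.3, and 173 and 171.5 CPM, or 0.16 ± 0.07 (adjusted p = 0.21), 0.31 ± 0.07 and 2.35 ± 0.07.

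Ricolinostat raised TUBA1A at each time, with 40.4 and 37.5 CPM at 2 h, 41.1 and 49.5 CPM at 5 h and 52.2 and 61.4 CPM at 20 h. No ricolinostat library overlapped with DMSO. The rises were 0.20 ± 0.07 (adjusted p = 0.024), 0.42 ± 0.07 (adjusted p = 1.3e-06) and 0.75 ± 0.07 (adjusted p = 9.7e-15), and the step from 5 to 20 h was 0.33 ± 0.07. The TUBA1A call at 2 h was lost when any 1 of the 4 libraries compared was left out (adjusted p = 0.21 and 0.095 without DMSO replicates 1 and 2, 0.69 and 0.13 without ricolinostat 2 h replicates 1 and 2). TUBA1A was the only tubulin gene described here whose change against DMSO was larger at each later time with all 3 inhibitors, by the fitted values alone.

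TUBA1B, the main alpha-tubulin of these cells (ENSG00000123416, chromosome 12, 49127782 to 49131397, minus strand), held 430.4 and 433 CPM in DMSO. It held 372 and 375, 286 and 288.5, and 173 and 179 CPM with panobinostat, and 421 and 455, 389 and 372, and 194 and 194 CPM with romidepsin. At 20 h both inhibitors had left it well below DMSO, with changes of -1.30 ± 0.04 and -1.15 ± 0.04 (adjusted p = 1.8e-51 and 5.6e-47). Earlier changes were -0.21 and -0.59 with panobinostat and 0.02 (adjusted p = 0.87) and -0.18 with romidepsin. The TUBA1B change with romidepsin at 5 h was lost when libraries were scaled by size alone (-0.06, adjusted p = 0.27). Ricolinostat lowered TUBA1B at all 3 times, by -0.13, -0.21 and -0.20, each ± 0.04.

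TUBA1C, the third alpha gene (ENSG00000167553, chromosome 12, 49188736 to 49274603, plus strand), fell less than TUBA1B with panobinostat and romidepsin at 20 h. It went from 236 and 238 CPM in DMSO to 138 and 153 CPM with panobinostat, 192 and 186 CPM with romidepsin and 192 and 202 CPM with ricolinostat at 20 h. These changes were -0.70 ± 0.05, -0.33 ± 0.05 and -0.26 ± 0.05 (adjusted p = 5.9e-27, 4.4e-10 and 1.0e-06), with no overlap with DMSO.

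Adding the counts of the 3 alpha genes gave a sum that fell where TUBA1A rose, as TUBA1A held 4.81% of the alpha counts in DMSO and TUBA1B and TUBA1C fell. The sum of TUBA1A, TUBA1B and TUBA1C fell by 0.16, 0.40 and 0.33 with panobinostat at 2, 5 and 20 h, and at 20 h by 0.34 with romidepsin and 0.16 with ricolinostat. Of the TUBA1A transcript, 18.3% of stretches are shared with other genes, so most of its length tells it apart from TUBA1B and TUBA1C.

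Per kilobase of exon, panobinostat and romidepsin at 20 h shifted the beta mix from TUBB to TUBB4B and the alpha mix towards TUBA1A. The neural-type beta genes gained but stayed small parts of the beta sum. Levels were divided by the length of the union of each gene's exons and expressed as a share of the beta or the alpha sum, as means ± SD of 2 libraries. An exact permutation test of 2 against 2 cannot give a two-sided p below 0.333, so the shares are not tested. In DMSO TUBB made up 63.4% ± 0.342 of the beta sum, TUBB4B 36.3% ± 0.382, TUBB2A 0.215% and each other beta gene less than 0.036%. With panobinostat at 20 h TUBB was at 14.0% ± 0.0421, TUBB4B at 79.3% ± 0.127, TUBB2A at 3.17%, TUBB3 at 2.07% ± 0.0441 and TUBB4A at 1.10%. The exon union was 4430 bases in TUBB3 against 1769 in its principal transcript, and 1727 against 1595 in TUBB2A. Which of TUBB3 and TUBB2A held the larger share thus depends on the length used. How reads shared with AC092143.1 were counted also bears on the TUBB3 share.

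TUBB and TUBB4B had thus exchanged rank, and already at 5 h TUBB4B held 60.5% ± 0.286 with panobinostat. The size of that 5 h share depends on the division by length: in CPM the means were close, at 901.7 for TUBB and 930 for TUBB4B. Romidepsin at 5 h shifted the other way, with 69.3% TUBB and 30.1% TUBB4B, before reaching 22.5% and 73.3% at 20 h. With ricolinostat TUBB held 59.4%, 58.9% and 61.3% at 2, 5 and 20 h, all below its DMSO share.

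TUBA1A was 5.43% ± 0.0859 of the alpha sum in DMSO, 46.2% ± 1.03 with panobinostat and 34.6% ± 0.111 with romidepsin at 20 h, and 10.1% ± 0.985 with ricolinostat. TUBA1B went from 66.4% to 32.8%, 37.3% and 64.0%, while TUBA1C was at 28.1% in DMSO and at 20.9%, 28.1% and 25.9%. Among these 3 alpha genes, TUBA1A therefore led per kilobase with panobinostat at 20 h, and TUBA1B in all other groups. TUBA4A, an alpha-tubulin outside the 10 genes, reached a group mean of 324 CPM and is not in these shares.

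The summed levels moved less than the mix. The beta sum was 789 ± 0.567 CPM per kb in DMSO (SD, n = 2), 1099.8 ± 35.8 with panobinostat and 951 ± 13.9 with romidepsin at 20 h, and 615 ± 18.7 with romidepsin at 5 h. The alpha sum was 182 ± 0.968 CPM per kb in DMSO, and 150 ± 3.51, 145 ± 1.43 and 164 ± 2.74 with panobinostat, romidepsin and ricolinostat at 20 h. At 20 h the beta sum was therefore above and the alpha sum below DMSO with panobinostat and romidepsin, each by more than the spread of the libraries. The alpha sum holds TUBA1A, TUBA1B and TUBA1C alone. Left out of it is TUBA4A (up to 324 CPM in a group), which rose with panobinostat at 20 h. The fall is therefore that of the listed alpha genes, not of all alpha-tubulin transcripts. The beta rise with romidepsin appeared only after division by length: without it the beta sum was 2298.5 ± 36.3 CPM, against 2289.9 ± 1.57 CPM in DMSO.

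**Figure D4:**
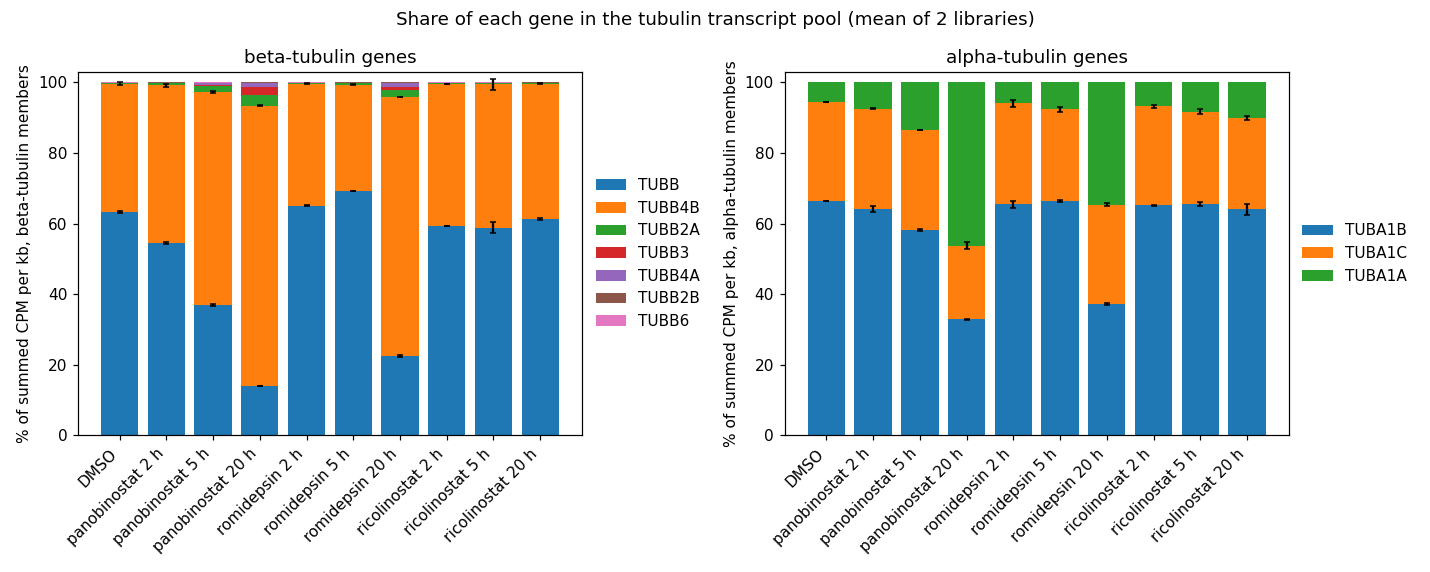
Share of each gene in the summed CPM per kb of the 7 beta genes (left) and the 3 alpha genes (right) in the 10 groups, as stacked mean percentages of 2 libraries, with the SD drawn on the lowest 2 segments of each bar. TUBB shrinks from 63.4% to 14.0% and TUBA1A grows from 5.43% to 46.2% between DMSO and panobinostat at 20 h.

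Romidepsin and panobinostat, both at 10 nM, differed in most tubulin genes. At 2 h 7 of 10 genes differed where 37.1% of all genes tested did, at 5 h 8 where 50.7% did, and at 20 h 8 where 41.7% did. At 5 h the romidepsin level minus the panobinostat level was -3.92 ± 0.18 for TUBB3, -3.05 ± 0.21 for TUBB4A, -1.91 ± 0.14 for TUBB2A and -1.25 ± 0.04 for TUBB4B (adjusted p = 2.7e-37, 6.0e-24, 4.2e-22 and 1.5e-52). TUBB was higher with romidepsin by 0.67 ± 0.04 and TUBA1B by 0.41 ± 0.04. At 20 h the gaps had narrowed to -1.41 ± 0.09 for TUBB3, -0.43 ± 0.13 for TUBB4A, -0.78 ± 0.10 for TUBB2A, -0.32 ± 0.04 for TUBB4B and 0.47 ± 0.04 for TUBB.

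The TUBB4A difference at 20 h did not pass once panobinostat 20 h replicate 1 (-0.39, adjusted p = 0.052) or romidepsin 20 h replicate 1 (-0.37, adjusted p = 0.062) was left out. That of TUBA1B at 20 h (0.14 ± 0.04, adjusted p = 0.003) was lost without romidepsin 20 h replicate 1 (adjusted p = 0.09) and with library size as the only scaling (0.07, adjusted p = 0.1), and that of TUBB2A at 2 h (-0.74 ± 0.17) without panobinostat 2 h replicate 2 (-0.49, adjusted p = 0.063). TUBB6 did not pass at any time, with differences of 0.76 ± 0.68, -1.31 ± 0.71 and -1.42 ± 0.63. Ricolinostat was given at another dose and its values stand beside the others without a test: at 20 h TUBB3 was at 0.128 and 0.181 CPM with 100 nM ricolinostat, 99.9 and 101.5 CPM with panobinostat and 38.6 and 37.0 CPM with romidepsin.

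**Figure D5:**
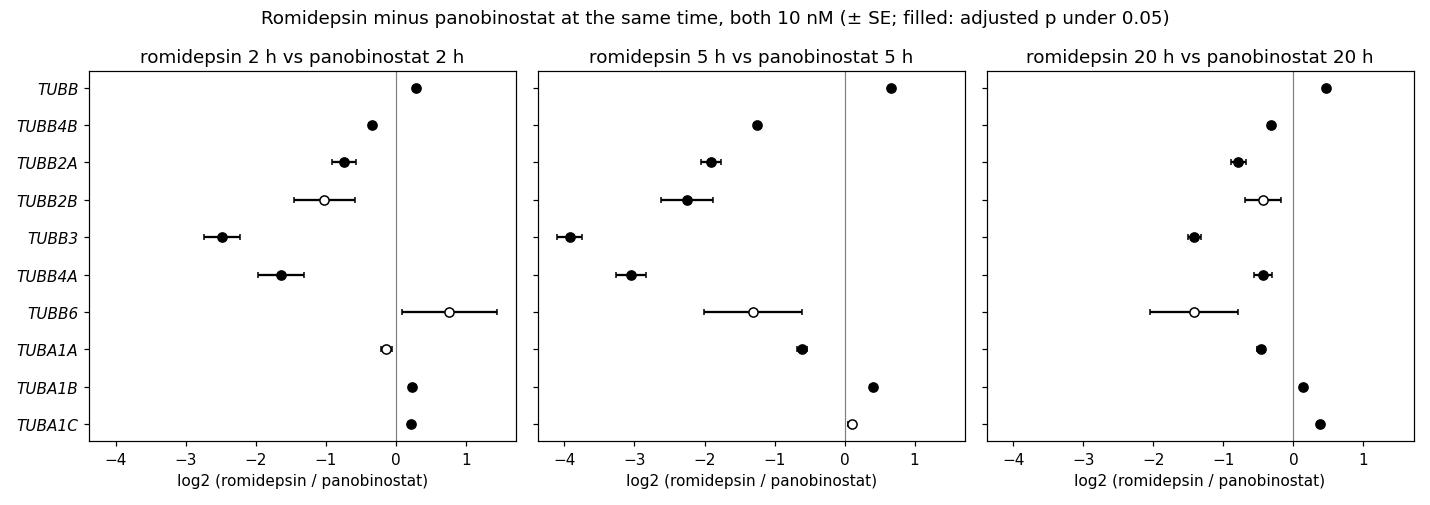
Romidepsin minus panobinostat as log2 fold change ± SE (x axis) for each tubulin gene (y axis) at 2, 5 and 20 h, both at 10 nM, with filled points where the adjusted p was under 0.05. TUBB3, TUBB4A, TUBB2A and TUBB4B lie to the left of 0 and TUBB and TUBA1B to the right at all 3 times, with the widest gaps at 5 h.

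Steps between successive times need no DMSO library. With panobinostat 9 of 10 genes changed from 2 to 5 h (41.9% of all genes tested) and 9 from 5 to 20 h (56.3%), TUBB6 being the exception in both. With romidepsin 5 changed from 2 to 5 h (20.3%) and 8 from 5 to 20 h (62.8%). The later romidepsin step was 5.2 ± 0.16 for TUBB3, 4.62 ± 0.19 for TUBB4A, 2.79 ± 0.13 for TUBB2A, 2.05 ± 0.07 for TUBA1A, -0.99 ± 0.04 for TUBB and -0.97 ± 0.04 for TUBA1B, whereas TUBA1C did not pass (-0.04 ± 0.05, adjusted p = 0.52).

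With ricolinostat 5 genes changed from 2 to 5 h (15.3%) and 5 from 5 to 20 h (37.9%). Leaving out single libraries put these counts at 1 to 6 and 3 to 6, and fitting the ricolinostat 5 and 20 h groups alone left 3. The largest of these steps were the change of TUBB3 by -1.62 ± 0.57 from 5 to 20 h (adjusted p = 0.016), which no longer passed when any 1 of the 4 libraries was left out (adjusted p = 0.053 to 0.15), and the rise of TUBB4A by 1.03 ± 0.31 from 2 to 5 h, which no longer passed without ricolinostat 2 h replicate 1 (adjusted p = 0.061), 2 h replicate 2 (0.1) or 5 h replicate 2 (0.51).

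The genes that handle tubulin changed in different directions. The counts at 20 h stand beside all genes tested, of which 40.8% were higher and 32.3% lower with panobinostat, 38.6% and 29.9% with romidepsin, and 14.7% and 16.4% with ricolinostat. A count near these shares is no result about its list. Of the 14 genes of the CCT chaperonin and its partner prefoldin, which fold new actin and tubulin, 12 fell and 1 rose with panobinostat at 20 h, 12 fell and 0 rose with romidepsin, and 12 fell and 0 rose with ricolinostat. At 5 h 10 had fallen and 2 risen with panobinostat, where 25.9% of all genes tested were lower and 30.7% higher. With romidepsin 11 had fallen and 0 risen at 5 h (16.5% and 13%). With ricolinostat 3 had fallen and 2 risen at 5 h (15.3% and 18.8%), counts near those shares. The medians at 20 h were -0.70, -0.73 and -0.37, beside 0.25, 0.22 and 0.03 over all genes tested. CCT5, a chaperonin subunit, changed by -1.52 ± 0.04, -1.56 ± 0.04 and -0.48 ± 0.04, and CCT7, another, by -1.12, -0.97 and -0.43. VBP1 and PFDN4, prefoldin subunits, changed by -1.57 ± 0.06 and -1.16 ± 0.09 with panobinostat at 20 h.

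Of the 7 folding cofactors, which assemble the alpha-beta pair, 3 rose and 1 fell with panobinostat at 20 h, 3 rose and 3 fell with romidepsin, and 0 rose and 3 fell with ricolinostat. TBCE, which acts on alpha-tubulin, rose by 2.54 ± 0.27 from 1.28 CPM in DMSO to 7.46 CPM with panobinostat at 20 h, and by 1.58 ± 0.28 with romidepsin. TBCA, which binds beta-tubulin, fell by 1.15 ± 0.06 and 0.93 ± 0.06 in the same groups. TBCD rose by 0.58 ± 0.05 and TBCEL, a relative of TBCE, by 0.53 ± 0.10 with panobinostat at 20 h.

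The 3 enzymes that set acetylation at position 40 all rose at 20 h with panobinostat and romidepsin. HDAC6 was at 69.1 CPM in DMSO and 156 CPM with panobinostat at 20 h, and its changes with panobinostat at 2, 5 and 20 h were -0.40 ± 0.06, -0.34 ± 0.06 and 1.17 ± 0.06. With romidepsin HDAC6 changed by -0.19, -0.18 and 0.98 ± 0.06, and with ricolinostat by -0.44, -0.49 and 0.25 ± 0.06, so that in all 3 series it was below DMSO at 2 and 5 h and above it at 20 h. ATAT1, the acetyltransferase, rose by 1.04 ± 0.12 and 0.78 ± 0.12 and SIRT2, the other deacetylase, by 0.85 ± 0.06 and 0.51 ± 0.06 with panobinostat and romidepsin at 20 h. With ricolinostat ATAT1 rose by 0.39 ± 0.13 at 2 h and 0.35 ± 0.13 at 5 h, and SIRT2 by 0.24 ± 0.06 and 0.36 ± 0.06. At 20 h neither ATAT1 (-0.06 ± 0.13, adjusted p = 0.81) nor SIRT2 (0.08 ± 0.06, adjusted p = 0.34) passed. RNA levels carry no value for acetylated tubulin itself.

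Of the 3 genes of the tubulin mRNA decay pathway, 2 rose and 1 fell with panobinostat at 20 h, 2 rose and 0 fell with romidepsin, and 1 rose and 0 fell with ricolinostat. TTC5 rose by 0.61 ± 0.08 with panobinostat and 0.41 ± 0.09 with romidepsin at 20 h. SCAPER, which links TTC5 to the deadenylase, changed by 0.22 ± 0.09, 0.43 ± 0.09 and 0.24 ± 0.09 with the 3 inhibitors, and CNOT11, a deadenylase subunit, by -0.48 ± 0.06, -0.09 (adjusted p = 0.13) and -0.13 (adjusted p = 0.066).

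Genes of other tubulin modifications followed no single direction. Of 14 tested glutamylation and glycylation genes 9 rose and 3 fell with panobinostat, 8 and 2 with romidepsin and 3 and 3 with ricolinostat at 20 h. Of all 19 listed, 10 reached a mean of 1 CPM in DMSO and 12 with panobinostat at 20 h. TTLL6, a polyglutamylase that passed the filter only through inhibitor groups, had a mean of 0.0423 CPM in DMSO and 11.6 CPM with panobinostat, TTLL1 rose by 2.28 ± 0.18 and TTLL3 by 1.06 ± 0.08, and TTLL12 fell by 1.08 ± 0.04. Of the 4 tyrosination genes 1 rose and 1 fell with panobinostat and with romidepsin at 20 h, and 0 and 1 with ricolinostat. VASH2, a detyrosinating protease, rose by 1.17 ± 0.21 with panobinostat at 20 h and TTL, which adds the tyrosine back, fell by 1.09 ± 0.06, while SVBP, the binding partner of VASH proteases, was at -0.11 ± 0.21 (adjusted p = 0.64).

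Of 9 genes of the gamma-tubulin ring complex, which nucleates microtubules, 3 rose and 5 fell with panobinostat, 3 and 4 with romidepsin and 2 and 4 with ricolinostat at 20 h. TUBGCP6 rose by 1.34 ± 0.05 with panobinostat, and MZT2B, MZT2A and TUBGCP4 fell by 2.27 ± 0.07, 2.20 ± 0.07 and 1.25 ± 0.10. Of 9 tested tubulin genes outside the 10, 3 rose and 3 fell with panobinostat and with romidepsin at 20 h, and 0 and 1 with ricolinostat. TUBG2, a gamma-tubulin, rose by 0.98 ± 0.08 and TUBA4A, an alpha-tubulin, by 0.52 ± 0.04 with panobinostat at 20 h, where TUBE1, an epsilon-tubulin, fell by 0.40 ± 0.11. TUBD1, a delta-tubulin, rose at 2 h with panobinostat (0.93 ± 0.12), romidepsin (0.72 ± 0.13) and ricolinostat (0.97 ± 0.12), and did not pass at 20 h with any of them.

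Among 15 tested microtubule-associated proteins 7 rose and 5 fell with panobinostat, 9 and 4 with romidepsin and 5 and 3 with ricolinostat at 20 h. MAP1A, a neuronal stabiliser of microtubules that passed the filter only through inhibitor groups, went from 0.281 to 111 CPM with panobinostat at 20 h (8.62 ± 0.17). MAP2, a dendritic one, went from 1.62 to 91.4 CPM (5.82 ± 0.12). MAP2 also rose with ricolinostat at 20 h (2.62 ± 0.16), as did MAP1A (2.16 ± 0.39) and the plus-end protein MAPRE3 (0.75 ± 0.13). TPPP, which bundles microtubules, rose by 4.29 ± 0.11 with panobinostat and 3.92 ± 0.12 with romidepsin. Stathmins sequester tubulin pairs. STMN1, the stathmin of dividing cells, fell from 578 to 277 CPM with panobinostat (-1.06 ± 0.04), and STMN2, a neuronal one, went from 0 counts in DMSO to a mean of 5.97 CPM.

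Of 16 neuronal markers, which include MAP2 and STMN2 from above, 3 reached a mean of 1 CPM in DMSO, and 9, 7 and 4 did so with panobinostat, romidepsin and ricolinostat at 20 h. Only 9 were tested, most of them with counts high enough only in some inhibitor groups, so no count of calls is drawn from them. Their summed level was 351 to 352 CPM in DMSO, mostly NCAM1 and UCHL1 at 174 CPM each, and 487 to 489, 661 to 673 and 357 to 371 CPM in these groups. SYP, a synaptic vesicle protein, rose by 4.84 ± 0.25 with panobinostat and ENO2, a neuronal enolase, by 4.84 ± 0.45, whereas NEFL, NEFM, NEFH, GAP43 and ELAVL4 stayed at or below 0.189 CPM there. SYP and ENO2 were both below a mean of 1 CPM in DMSO, so the sizes of their rises lean on low DMSO counts. Summed stromal markers went from at most 0.0745 CPM in DMSO to 35.4 to 37.1 CPM with panobinostat and 27 to 29.2 CPM with romidepsin at 20 h, and myeloid ones from at most 0.335 CPM to 6.97 to 7.01 and 2.19 to 2.57 CPM. Erythroid markers stayed at or below 0.974 CPM in DMSO and the 20 h groups. The part of these marker levels in the tubulin changes was not tested.

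By Pearson correlation of log2 CPM over the 10 group means, among 10416 protein-coding genes that reached 5 CPM in a group, the genes most like TUBB3 were EGR1, an immediate-early transcription factor (r = 0.991), DLC1 (r = 0.991), and ZNF554, a zinc finger protein (r = 0.985). Those most like TUBA1B were BDH1, a ketone body enzyme (r = 0.998), DOK3, an adaptor of immune receptors (r = 0.997), and RAN, the GTPase of nuclear transport (r = 0.997). All these values share the same libraries and scaling. A high r can rest largely on the groups with the largest changes, and does not show a shared order of the other groups.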

How the data were processed

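The members and all gene lists were chosen with earlier results of these data known. Poly(A), strand-specific, paired-end RNA-seq was done in OPM2 cells per the labels' protocols. The authors deposited 1 table of raw counts per Ensembl gene, for which the submitters' processing notes name HISAT2, featureCounts, SAMtools and the build GRCh38. The sources used here give no version, annotation release, strand setting or rule for reads matching several genes.

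Groups came from the sample labels. With R 4.3.3 and edgeR 4.0.16, genes passing filterByExpr (minimum count 10) entered 1 model of all 20 libraries with a term per group (TMM scaling, robust quasi-likelihood). Two-sided F tests were adjusted by Benjamini-Hochberg over 20957 genes within each of 18 contrasts: 9 with DMSO, 3 between romidepsin and panobinostat, and 6 between times. The biological coefficient of variation was 0.0419. The SE is the absolute log2 fold change divided by the square root of F. With 2 libraries per group, the p-values rest on a spread pooled over all 20 libraries and moderated across genes. They do not measure the spread within the 2 compared groups alone. Replicate numbers did not pair the libraries. Positions, exon lengths and coding bases came from GENCODE 29, promoters from RefSeq (GRCh38.p14). As the annotation release behind the counts is not known, the exons counted may differ from those of GENCODE 29. The levels per kilobase, the shares and the overlaps between genes carry that limit. Named were all 10 tubulin genes, and up to 4 genes per list with the largest passing change with DMSO and at least 5 CPM in a group, plus HDAC6, ATAT1, SIRT2 and TTC5; NCAM1, UCHL1 and the low neuronal markers were named after their values were seen. The fit was tested on simulated data. Alternatives were DESeq2 1.42.0, its size factors, library size only, no filter, a mean of at least 1 CPM, a replicate block, only the groups compared, summed near copies, principal-transcript length and leaving out single libraries. Proteins were not used here.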

Additional observations from a re-analysis of the deposited data

Results flagged for a closer look

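TUBB4B responded in opposite directions to romidepsin and panobinostat, both at 10 nM, at the early times, and the difference itself passed the edgeR test. At 2 h TUBB4B was at -0.16 with romidepsin and 0.18 with panobinostat against DMSO, a difference of -0.34 ± 0.04 (adjusted p = 8.2e-14). At 5 h the effects were -0.63 and 0.62 and the difference -1.25 ± 0.04 (adjusted p = 1.5e-52). Within romidepsin, TUBB4B was below DMSO at 5 h (-0.63) and above it at 20 h (1.28), and the 2 times differed by 1.91 ± 0.04 (adjusted p = 4.2e-69). All 4 romidepsin libraries at 2 and 5 h lay below both DMSO libraries, and all panobinostat libraries above them.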

How the results depend on the processing

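Over the 180 changes of single tubulin genes, DESeq2 kept the direction and side of the threshold of 171, its size factors 176, library size only 169 (5 lost, 5 gained, 1 reversed) and no filter 176. A mean of at least 1 CPM left fewer to test, of which 158 kept both, 1 lost and 3 gained a call, as did fitting only the groups compared (161, 7 and 6). Of the values without 1 library, 660 did so, 48 lost and 12 gained a call. Leaving out single libraries gave 933 to 1186 genes called with romidepsin at 2 h (1711 with all), 2714 to 3490 for its step from 2 to 5 h (4253) and 1830 to 2816 for that of ricolinostat (3199). The tubulin genes changed were then 1 to 2 with romidepsin at 2 h (2 with all), 2 to 4 with ricolinostat at 2 h (5), 3 to 5 at 20 h (5), 1 to 6 for its early step (5) and 3 to 6 for its late step (5). Fitting only the groups compared gave 3 tubulin genes for that late step and 1 with romidepsin at 2 h. These ricolinostat and early romidepsin calls are the least secure.

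Library size as the only scaling turned TUBB with ricolinostat at 20 h to 0.014 (adjusted p = 0.79) and lost TUBA1B with romidepsin at 5 h (-0.055, adjusted p = 0.27). It moved the median of all genes from 0.25 to 0.56 with panobinostat at 20 h and from 0.22 to 0.46 with romidepsin at 20 h, and from 0.12 to 0.25, 0.02 to 0.14 and 0.03 to 0.14 with panobinostat at 5 h, romidepsin at 5 h and ricolinostat at 20 h. Higher genes then went from 55.8 to 65.9% of those called with panobinostat at 20 h, from 43.4 to 65.6% and 44.1 to 71.3% with romidepsin at 2 and 5 h (30.7% at 2 h by DESeq2), and from 47.3 to 66.2% with ricolinostat at 20 h. For the steps they went from 47.2 to 62.7% and 48.8 to 60.6% (panobinostat), 41.4 to 65% (romidepsin 2 to 5 h) and 43.8 to 60.6% (ricolinostat 2 to 5 h).

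Summing TUBA1A, TUBA1B and TUBA1C reversed TUBA1A by construction, since TUBA1B and TUBA1C hold most of the counts. Against DMSO the sum was at -0.161, -0.402 and -0.333 with panobinostat, -0.103, -0.201 and -0.156 with ricolinostat, and -0.189 and -0.339 with romidepsin at 5 and 20 h. From 2 to 5 h it was -0.241 (panobinostat), -0.098 (ricolinostat) and -0.232 (romidepsin), and -0.149 for romidepsin from 5 to 20 h. Romidepsin minus panobinostat for the sum was 0.204 and 0.212 at 2 and 5 h, where TUBA1A itself was at -0.13 and -0.61. For TUBA1B and TUBA1C the sum gave 0.069 for panobinostat from 5 to 20 h and -0.006 between romidepsin and panobinostat at 20 h.

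Same-numbered replicates did not deviate together (45 pairs of groups, correlations -0.0248 to 0.0347), so they share only a number. A replicate block kept the direction and side of the threshold of 179 of the 180 changes tested. It lost 1 call, TUBB4A with ricolinostat from 5 to 20 h (-0.718, adjusted p = 0.052). Without division by length the panobinostat 20 h beta shares were 20.2% TUBB and 71.7% TUBB4B. With 2 to 33 counts per library, depth limits TUBB6. In DMSO 2 and 6 counts limit TUBB3, 11 and 8 limit TUBB4A, and 16 and 13 limit TUBB2B.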
